A study of Mus musculus with 8 samples.

Results

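A set of 10 Notch pathway genes was followed in RNA-seq of early postnatal retina from *Mettl3*-CKO and control mice. They are 3 receptors (*Notch1*, *Notch2* and *Notch3*), 5 ligands (*Dll1*, *Dll3*, *Dll4*, *Jag1* and *Jag2*) and 2 target genes (*Hes1* and *Hes5*). They were chosen by name, and make up 10 of the 54532 genes in the count table. All 10 passed the filter on low counts that left 17998 genes for testing.

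Whole retina was sequenced from 4 *Mettl3*-CKO samples and 4 control samples. The labels give both groups the age of postnatal day 7, and the methods give p6. *Mettl3*-CKO mice were *Six3-Cre*+; *Mettl3* floxed/floxed, in which the Cre acts in retinal progenitor cells (RPCs), so that vessels, astrocytes and blood in the same tissue were not its target. Controls were pups whose genotype is given only as control. The study's statistics section states that its tests rest on biological replicates. Whether a sample was 1 retina or a pool is not given in the sources used here, and the p-values measure the spread between these samples. *Mettl3* encodes the catalytic subunit of the enzyme complex that places N6-methyladenosine (m6A) on mRNA.

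Notch receptors are cut after they bind a ligand on a neighbouring cell. The released intracellular domain enters the nucleus, joins the DNA-binding protein RBPJ and switches on genes such as *Hes1* and *Hes5*, whose protein products repress proneural genes. In the developing retina this signal holds RPCs in the undifferentiated state, and in the late retina it favours the formation of Müller glia. The comparison asks whether RNA of the receptors, ligands and targets differed between *Mettl3*-CKO and control retinas.

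In *Mettl3*-CKO retinas *Notch3* rose 2.76-fold, and it was the only one of the 10 genes past an adjusted p-value of 0.05 in edgeR's quasi-likelihood test. *Notch2* and *Hes1* had higher means in *Mettl3*-CKO retinas and *Jag1* a lower mean, each with an adjusted p-value between 0.05 and 0.06. *Notch1*, *Dll1*, *Jag2* and *Hes5* had log2 fold changes between -0.12 and 0.04. Of all genes tested, 6.49% were called higher and 4.05% lower, so that 1 higher call and 0 lower calls among 10 genes is close to the background.

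The windows around the transcription starts of 3 of the genes are printed here. *Notch3* and *Notch2* are the receptors whose libraries did not overlap between the groups, and *Hes5* is a direct target of the pathway. These genes were picked with their expression values known, and a part of the windows in those values was not tested. The windows run from 250 bases before the start to 50 after it, and were taken from RefSeq for GRCm38.p6, 5′ to 3′ on the strand of the gene. Capitals mark TGGGAA, the core of the RBPJ motif, or CACNAG, an element that HES proteins can bind, with either motif searched on both strands.
*Notch3* (chr17:32166841-32167140, minus strand): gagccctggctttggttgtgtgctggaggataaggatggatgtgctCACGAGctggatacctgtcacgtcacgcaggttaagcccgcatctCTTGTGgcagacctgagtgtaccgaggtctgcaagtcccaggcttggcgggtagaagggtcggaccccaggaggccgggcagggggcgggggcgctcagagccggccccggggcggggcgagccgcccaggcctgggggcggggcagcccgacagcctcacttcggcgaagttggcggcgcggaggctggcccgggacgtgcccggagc
*Notch2* (chr3:98013288-98013587, plus strand): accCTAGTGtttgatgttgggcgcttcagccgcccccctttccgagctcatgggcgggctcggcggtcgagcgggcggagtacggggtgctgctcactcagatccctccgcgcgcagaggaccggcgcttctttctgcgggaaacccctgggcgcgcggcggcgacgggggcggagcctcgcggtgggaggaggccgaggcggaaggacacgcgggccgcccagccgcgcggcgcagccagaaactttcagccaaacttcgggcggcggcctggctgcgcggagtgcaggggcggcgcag
*Hes5* (chr4:154960673-154960972, plus strand): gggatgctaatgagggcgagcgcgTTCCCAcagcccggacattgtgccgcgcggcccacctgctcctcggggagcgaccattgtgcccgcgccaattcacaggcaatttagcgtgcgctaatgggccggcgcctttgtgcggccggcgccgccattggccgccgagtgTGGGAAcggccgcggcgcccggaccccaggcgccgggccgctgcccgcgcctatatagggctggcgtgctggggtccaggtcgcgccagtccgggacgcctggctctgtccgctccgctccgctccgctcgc

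The *Hes5* window holds TGGGAA at 2 places, on the minus strand at -226 and on the plus strand at -82, counted from the start site. Both lie within the longer GTGGGAA. Among the 10 windows found for 9 of the 10 genes (*Dll1* has 2, and *Hes1* was not matched), *Hes5* was the only gene with TGGGAA, a motif present in 25.6% of all 32851 promoter windows of that length; GTGGGAA was present in 6.38%. *Notch3* holds CACNAG at -204 and -159 and *Notch2* at -247, and it also lies in windows of *Notch1*, *Dll4* and *Dll1*, against 42.5% of all windows. The windows are rich in G and C, at 70% for *Notch3*, 73% for *Notch2* and 72.7% for *Hes5*. A match describes the letters only and was set against no binding data.

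*Mettl3*, the targeted gene, was measured first. Its level in CPM (counts scaled to the library total, after edgeR's TMM scaling) was 21.1, 29.6, 21.3 and 24.3 in *Mettl3*-CKO libraries 1 to 4, against 33.8, 32.5, 29.4 and 29.3 in control libraries 1 to 4. The log2 fold change was -0.38 (SE 0.12, adjusted p = 0.0602 by edgeR), and *Mettl3*-CKO replicate 2 lay within the control range. Counts are summed over the gene, so transcript outside the deleted part is included. The paper describes efficient loss of the protein for the central retina, by immunostaining, while whole retina was sequenced. The parts of transcript outside the deletion and of retina outside the centre in the remaining level were not tested. By qPCR after pull-down of m6A RNA, the paper also reports lower m6A on several candidate transcripts in *Mettl3*-CKO retinas.

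Total counts lay between 16227095 and 20281517, and 3 counts correspond to at most 0.185 CPM, far below the lowest of the 10 genes (*Jag1*, 114 counts in its lowest library). All 8 retinal marker genes examined were detected. Control replicate 1 had the lowest level among the controls for 9 of the 10 genes, all but *Hes1*. Its summed mural marker level was 67.7 CPM against 21.7 to 32.5 CPM in the other controls, and its summed dividing-cell marker level was the lowest of the controls (1406 CPM). Control replicate 4 carried lens RNA, with a summed lens marker level of 3084.5 CPM against 6.65 to 63.6 CPM in the other controls. At an adjusted p-value under 0.05 by edgeR, 6 of 10 rod markers and 7 of 9 tested endothelial markers were called lower in *Mettl3*-CKO retinas. At the same threshold 3 of 9 dividing-cell markers were called higher. Of all genes tested, 4.05% were called lower and 6.49% higher. Log2 fold changes ran from -1.09 to 0.08 for rod, -2.28 to 0.02 for endothelial and 0.18 to 0.98 for dividing-cell markers. In whole tissue, fewer cells of a type and less RNA per cell cannot be told apart. The part of these markers in the results on Notch genes was not tested unless stated.

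*Notch3* lies on the minus strand of chromosome 17 (GRCm38 chr17:32120820-32166880, ENSMUSG00000038146). It encodes a receptor best known from the smooth muscle and pericytes of vessels, and is also present in neural progenitors. It was measured at 51.9, 40.9, 29.9 and 32.8 CPM in *Mettl3*-CKO libraries 1 to 4, against 10.6, 13.5, 16.8 and 15.5 CPM in control libraries 1 to 4. Every *Mettl3*-CKO library was above every control, and the lowest of them was 1.78-fold above the highest control. The means of 38.9 ± 9.86 and 14.1 ± 2.71 CPM (SD, n = 4) differed by a log2 fold change of 1.46 with a 95% interval from 1.07 to 1.85 (SE 0.18, adjusted p = 0.000659 by edgeR). Of all genes tested, 94 had a larger log2 fold change and 9.77% had all *Mettl3*-CKO libraries above all controls. Without control replicate 1 the log2 fold change was 1.35, and without control replicates 1 and 4 it was also 1.35. Without *Mettl3*-CKO replicate 1, the highest library, it was 1.29 (adjusted p = 0.0028 by edgeR).

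Mural cells of vessels, in which *Notch3* is well known, were followed with 7 markers, of which 6 were tested. The log2 fold changes of 5 of them were below 0, and the median of the 6 was -0.95. *Rgs5*, a signalling regulator of pericytes, fell (log2 fold change -1.99), as did *Abcc9*, a potassium channel subunit (-1.68), while *Cspg4*, the NG2 proteoglycan of pericytes and glial progenitors, rose (1.203, adjusted p = 0.00613 by edgeR). *Acta2* (-1.14), *Des* (-0.77) and *Pdgfrb* (-0.70) did not pass the threshold. The summed mural level was lower in all *Mettl3*-CKO libraries, at 15.7 to 18.5 CPM against 21.7 to 67.7 CPM in controls. *Rgs5* made up much of that sum in controls, at 11.1 to 53.1 CPM, against 4.52 to 8.87 CPM in *Mettl3*-CKO libraries. The part of mural cells in the levels of *Notch3* was not tested. The summed level of dividing-cell markers was higher in all *Mettl3*-CKO libraries, at 1915 to 2579 CPM against 1406 to 1818 CPM. *Mki67* made up much of that sum, at 728 to 1092 CPM in *Mettl3*-CKO libraries against 405 to 509 CPM in controls. Of the 9 markers, 2 (*Mki67* and *Birc5*) had all *Mettl3*-CKO libraries above all controls, and the other markers overlapped. Whether dividing cells had a part in the rise of *Notch3* was not tested.

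*Notch2*, another receptor (chr3:98013527-98150361, plus strand), was measured at 58.5, 52.1, 50.3 and 47.9 CPM in *Mettl3*-CKO libraries 1 to 4. In control libraries 1 to 4 the levels were 25.8, 39.6, 45.2 and 39.6 CPM. The groups did not overlap, but the distance between them was small, with the highest control close under the lowest *Mettl3*-CKO library. The log2 fold change was 0.48 with a 95% interval from 0.16 to 0.79 (SE 0.14), and the adjusted p-value of 0.0529 from edgeR missed the threshold. Without control replicate 1 the log2 fold change was 0.33 and without control replicate 3 it was 0.58, with adjusted p-values of 0.0226 and 0.0408 from edgeR, both past the threshold. DESeq2 also called it (adjusted p = 0.0218), as it did 14.2% of all genes tested. The edgeR fit without control replicate 1 called 1882 of 18235 genes higher, against 1168 of 17998 with all libraries.

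*Notch1* is the main receptor of RPCs (chr2:26457903-26516663, minus strand) and the most counted gene of the 10, with up to 9107 counts in a library. It was measured at 417, 488, 316 and 335 CPM in *Mettl3*-CKO libraries 1 to 4, against 230, 426, 478 and 439 CPM in control libraries 1 to 4. The *Mettl3*-CKO libraries lay inside the control range except for replicate 2, and control replicate 1 stood well below all others. By edgeR the log2 fold change was -0.02 (95% interval -0.45 to 0.41, adjusted p = 0.973 by edgeR). That interval leaves room for a difference of either sign. Without control replicate 1 the log2 fold change was -0.20, with an adjusted p-value of 0.271 from edgeR.

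**Figure D1:**
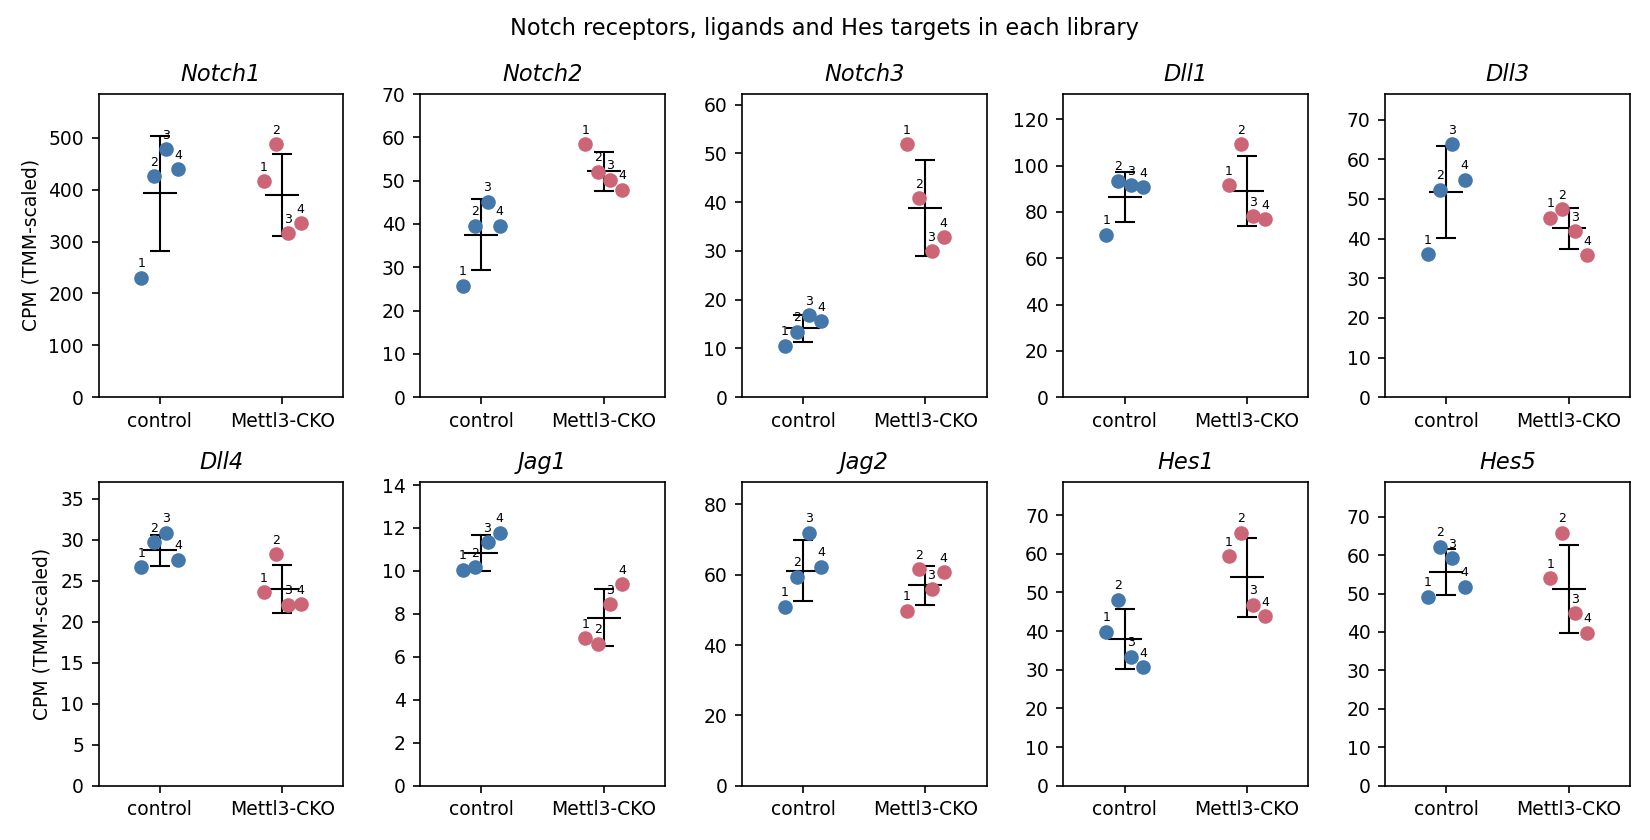
Level of each of the 10 genes in CPM (vertical axes from 0, TMM-scaled) in the 4 *Mettl3*-CKO and 4 control libraries, 1 point per library labelled with its replicate number, with bars for mean ± SD. *Notch3* separates the groups most clearly, at 29.9 to 51.9 against 10.6 to 16.8 CPM, and control replicate 1 is the lowest control in 9 of the 10 genes.

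Levels between genes were compared in FPKM, which corrects for gene length. In control retinas *Hes5* was highest (40.6 ± 4.95 FPKM), followed by *Notch1* (27.6 ± 8.08), *Dll1* (20.4 ± 2.89), *Hes1* (18.5 ± 3.83) and *Dll3* (18.1 ± 4.24). *Jag2* (8.74 ± 1.33), *Dll4* (7.41 ± 0.581), *Notch2* (3.47 ± 0.804), *Jag1* (1.85 ± 0.167) and *Notch3* (1.75 ± 0.355) followed (all SD, n = 4). *Hes5* lay above 93.6% of the tested genes in controls and *Notch3* above 29.8%. The ranges of neighbours overlapped from *Notch1* down to *Dll3*, between *Jag2* and *Dll4*, and between *Jag1* and *Notch3*, so their order is not set by these libraries. In *Mettl3*-CKO retinas *Notch3* reached 4.84 ± 1.25 FPKM, the same mean as *Notch2* (4.84 ± 0.432), and stood clear of *Jag1* (1.34 ± 0.229).

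**Figure D2:**
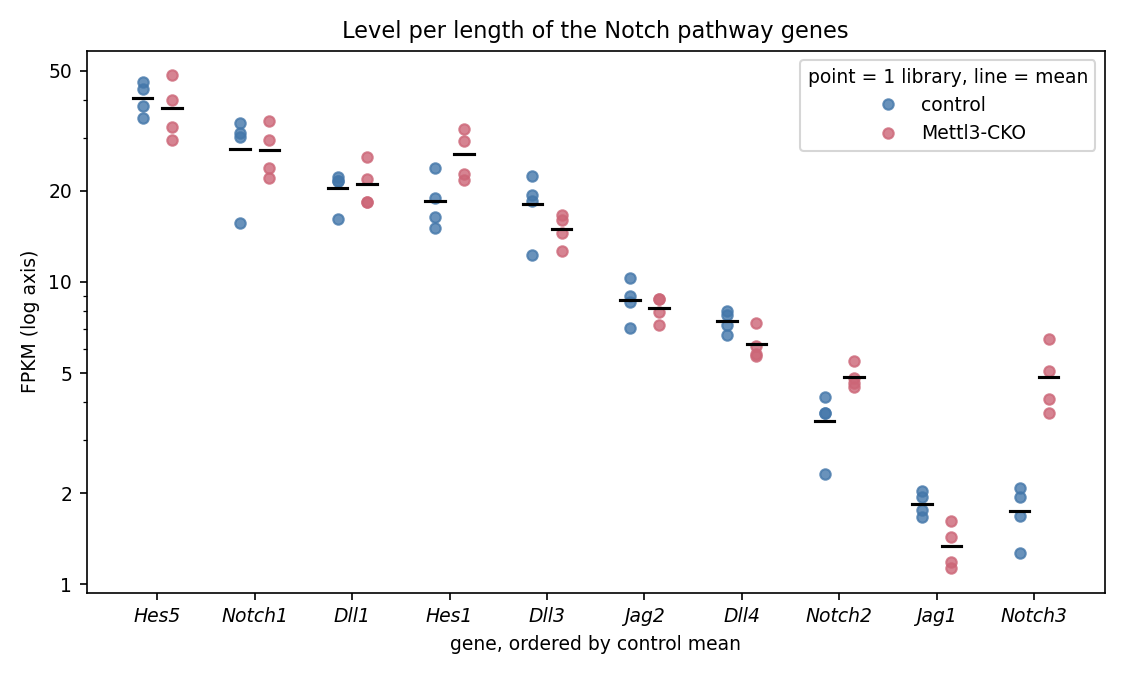
FPKM of the 10 genes on a log axis, ordered by the control mean, with 1 point per library in each group. *Hes5* is at the top with 40.6 FPKM in controls, and *Notch3* moves from 1.75 FPKM in controls to 4.84 FPKM in *Mettl3*-CKO retinas.

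As a share of the summed FPKM of the 3 receptors, *Notch3* made up 5.48% ± 0.805 in controls (4.75% to 6.63%) and 13.0% ± 1.85 in *Mettl3*-CKO retinas (11.5% to 15.7%), without overlap. *Notch1* made up 83.8% ± 1.64 in controls and 73.7% ± 2.75 in *Mettl3*-CKO retinas, also without overlap. *Notch2* had 10.8% ± 0.875 and 13.3% ± 1.79 (all SD, n = 4), and its ranges overlapped. The summed receptor level was 32.8 ± 9.22 FPKM in controls and 37.1 ± 6.72 FPKM in *Mettl3*-CKO retinas. *Notch1* was thus the most abundant receptor transcript in every library of both groups.

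Among the 5 ligands, 0 were called in either direction by edgeR, and 2 of them, *Dll4* and *Jag1*, had an unadjusted p-value under 0.05. DESeq2, which called 14.2% of all genes, called *Jag1* alone. The voom fit of limma with weights per sample, which called 20.6% of all genes, called *Jag1*, *Dll3* and *Dll4*, all lower. All 5 had an absolute log2 fold change under 0.5. *Dll1*, the Delta ligand of newborn neurons and RPCs (chr17:15367354-15376872, minus strand), had levels of 91.5, 109, 78.2 and 76.8 CPM in *Mettl3*-CKO libraries 1 to 4, against 70.2, 93.5, 91.5 and 90.5 CPM in control libraries 1 to 4. The groups overlapped and 3 of the controls lay within 3 CPM of each other. By edgeR the log2 fold change was 0.04 (95% interval -0.24 to 0.32, adjusted p = 0.888 by edgeR), and it turned to -0.05 without control replicate 1 and to -0.07 without *Mettl3*-CKO replicate 2.

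*Dll3* is a divergent Delta family member that works within the cell that makes it and does not activate receptors on neighbours (chr7:28293553-28302238, minus strand). It was at 45.2, 47.5, 41.8 and 35.8 CPM in *Mettl3*-CKO libraries 1 to 4, against 36.1, 52.3, 63.8 and 54.9 CPM in control libraries 1 to 4. Control replicates 2 to 4 were above all *Mettl3*-CKO libraries, and control replicate 1 was below 3 of them. It had a log2 fold change of -0.28 (SE 0.15, adjusted p = 0.272 by edgeR). Without control replicate 1 it was -0.42 with an adjusted p-value of 0.0126 from edgeR, and without control replicate 3 it was -0.16 with 0.588. The fit without control replicate 1 called 1289 of 18235 genes lower, against 729 of 17998 with all libraries. With all 8 libraries, limma's voom fit gave -0.43 (adjusted p = 0.0139), past the threshold.

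*Dll4*, a Delta ligand of newborn photoreceptors and of sprouting vessels (chr2:119325784-119335962, plus strand), was at 23.6, 28.2, 22.0 and 22.1 CPM in *Mettl3*-CKO libraries 1 to 4, against 26.6, 29.7, 30.8 and 27.6 CPM in control libraries 1 to 4. Only *Mettl3*-CKO replicate 2 reached the control range. The log2 fold change was -0.26 (95% interval -0.49 to -0.03, adjusted p = 0.143 by edgeR). *Dll4* overlaps *Gm14207* on the opposite strand, which had 122 to 193 counts, and the use of strand in counting is not given in the sources used here, so its level is uncertain. *Dll1* likewise overlaps *A930024N18Rik*, with 63 to 117 counts. With *Kdr*, which neural cells of the retina also express, the endothelial markers summed to 541 to 646 CPM in *Mettl3*-CKO retinas and 545 to 657 CPM in controls. Without *Kdr* they summed to 18.2 to 24.5 CPM in *Mettl3*-CKO retinas, against 35.1 to 79.3 CPM in controls. The part of endothelial cells in the levels of *Dll4* was not tested.

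*Jag1*, a Jagged family ligand (chr2:137081456-137116644, minus strand), was the least counted gene of the 10. It was at 6.86, 6.61, 8.45 and 9.38 CPM in *Mettl3*-CKO libraries 1 to 4, against 10.1, 10.2, 11.3 and 11.8 CPM in control libraries 1 to 4. All *Mettl3*-CKO libraries lay below all controls, as for 7.58% of the tested genes. The log2 fold change was -0.47 with a 95% interval from -0.78 to -0.16 (SE 0.14), and the adjusted p-value of 0.057 from edgeR missed the threshold. It passed without control replicate 1 (0.0309) and without *Mettl3*-CKO replicate 4 (0.0383), and with DESeq2 (0.0261). The fit without control replicate 1 called 1289 of 18235 genes lower, against 729 of 17998 with all libraries. *Jag1* is also made by endothelial cells, whose summed markers without *Kdr* were lower in *Mettl3*-CKO retinas as given for *Dll4*, and their part was not tested.

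*Jag2*, the other Jagged ligand (chr12:112907819-112929776, minus strand), was at 49.7, 61.5, 55.9 and 60.7 CPM in *Mettl3*-CKO libraries 1 to 4, against 50.9, 59.4, 72.0 and 62.2 CPM in control libraries 1 to 4. The groups overlapped, and control replicate 3 was the highest library. It had a log2 fold change of -0.10 (95% interval -0.35 to 0.14, adjusted p = 0.636 by edgeR). As shares of the summed ligand FPKM, *Dll1* held 36.2% ± 1.79 in controls and 40.5% ± 2.36 in *Mettl3*-CKO retinas, and *Dll3* 31.7% ± 2.86 and 28.9% ± 1.84 (SD, n = 4). *Jag1* held the smallest share, 3.31% ± 0.392 and 2.65% ± 0.698.

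*Hes1* and *Hes5* encode repressors of the basic helix-loop-helix type that are switched on by Notch in RPCs and remain in glia. *Hes1* (chr16:30064384-30067796, plus strand) was at 59.3, 65.5, 46.8 and 43.9 CPM in *Mettl3*-CKO libraries 1 to 4, against 39.8, 48.1, 33.4 and 30.6 CPM in control libraries 1 to 4. Control replicate 2 lay above the lower *Mettl3*-CKO libraries and the other controls lay below all of them. The means of 53.9 ± 10.2 and 38.0 ± 7.78 CPM (SD, n = 4) differed by a log2 fold change of 0.50 with a 95% interval from 0.17 to 0.84 (SE 0.16, adjusted p = 0.0573 by edgeR). It passed the threshold without control replicate 1 (adjusted p = 0.0296 by edgeR), without control replicate 2 (0.0327), without *Mettl3*-CKO replicate 4 (0.0437) and with DESeq2 (0.0219). The fit without control replicate 1 called 1882 of 18235 genes higher, against 1168 of 17998 with all libraries.

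*Hes5* (chr4:154960923-154962371, plus strand) was at 54.0, 65.9, 44.8 and 39.8 CPM in *Mettl3*-CKO libraries 1 to 4, against 49.2, 62.2, 59.2 and 51.8 CPM in control libraries 1 to 4. The *Mettl3*-CKO libraries spanned the controls, with replicate 2 above all of them, replicate 1 among them and replicates 3 and 4 below all of them. For *Hes5* the log2 fold change was -0.12 (95% interval -0.43 to 0.19, adjusted p = 0.658 by edgeR). Müller glial markers, which mark the cells that keep *Hes1* and *Hes5*, summed to 2123.5 to 2305 CPM in *Mettl3*-CKO retinas, against 2075 to 2580 CPM in controls. Of the 8 tested, *Glul* rose (log2 fold change 0.43) and *Rlbp1* fell (-1.28), and the part of these cells in the levels of *Hes1* and *Hes5* was not tested.

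**Figure D3:**
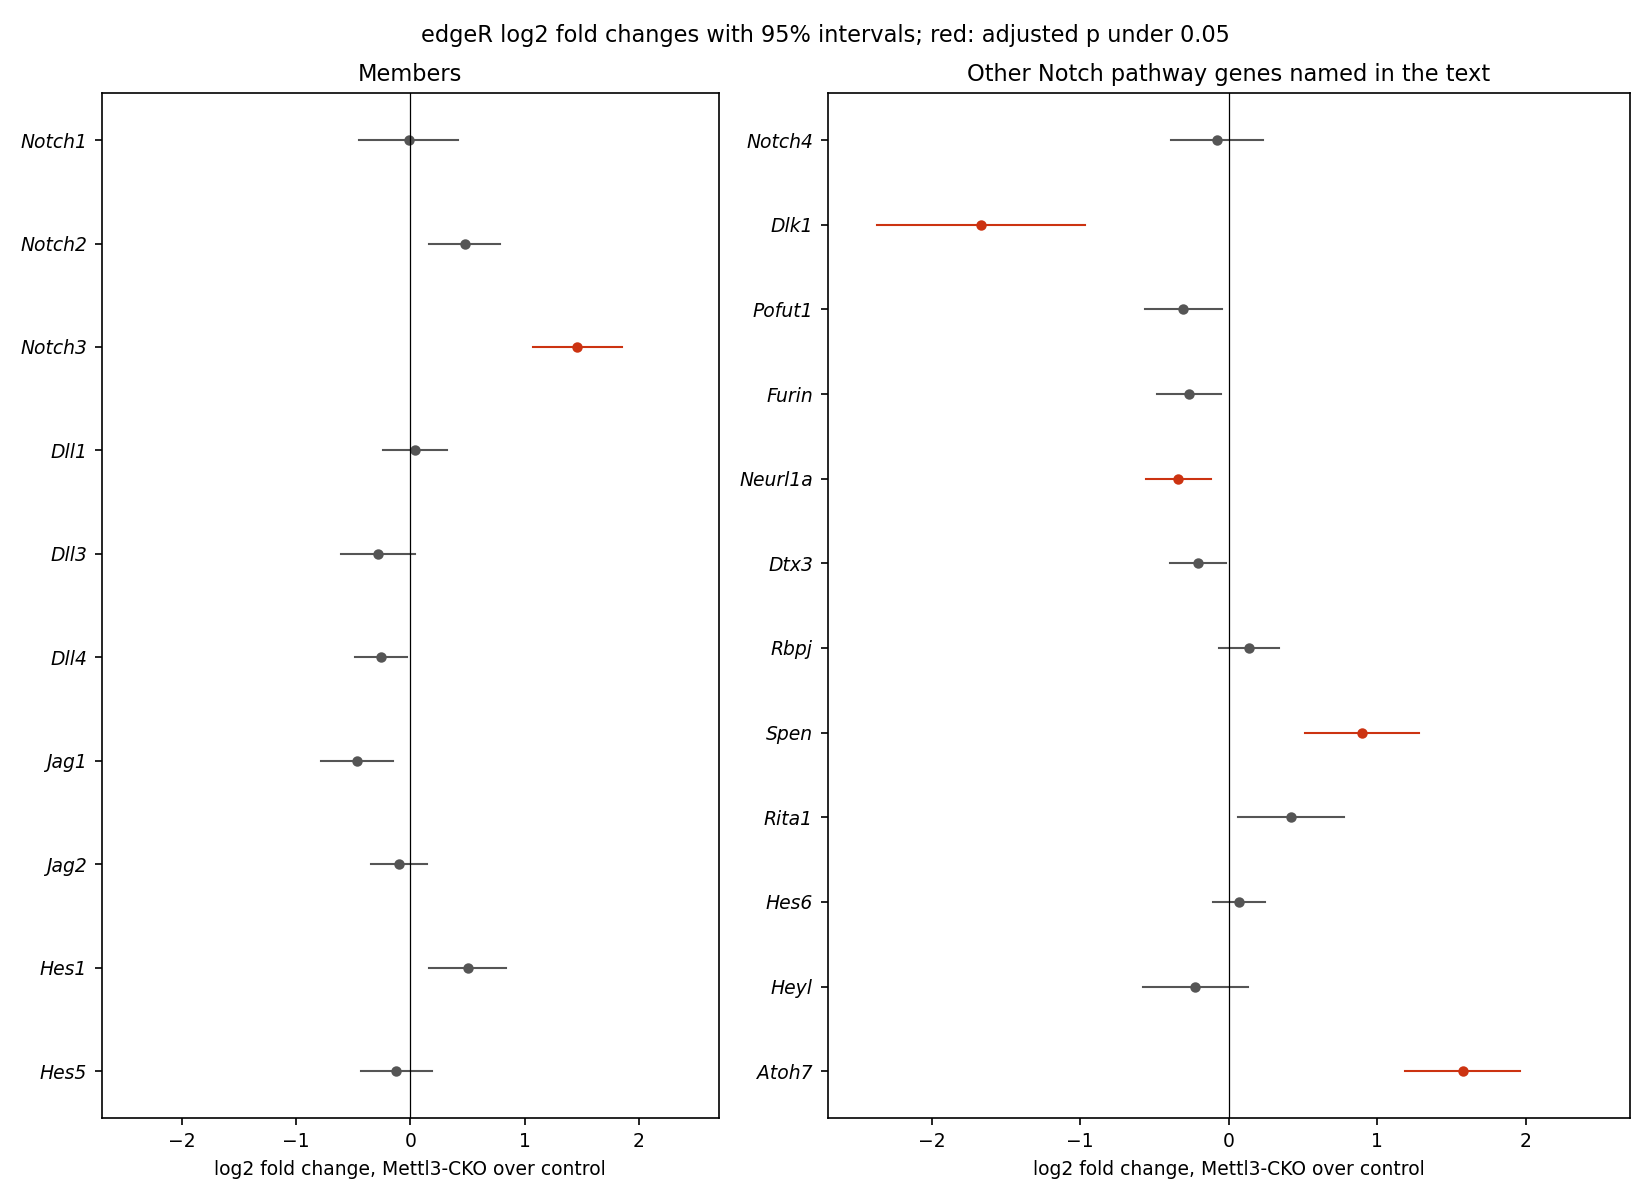
Log2 fold changes (*Mettl3*-CKO against control, edgeR, horizontal axis) with 95% intervals for the 10 genes and for the 12 other Notch pathway genes named in the text, in red where the adjusted p-value was under 0.05. *Notch3* at 1.46 is the only red point among the 10, and *Atoh7* (1.57), *Spen* (0.90), *Dlk1* (-1.67) and *Neurl1a* (-0.34) are red among the others.

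The ratios of 4 pairs of family members were compared within libraries, so that the scaling of a library cancels. The log2 ratio of *Hes5* to *Hes1* in CPM was -0.08 ± 0.07 in *Mettl3*-CKO retinas and 0.56 ± 0.26 in controls (SD, n = 4), a difference of -0.65. For *Notch3* to *Notch1* it was -3.33 ± 0.24 and -4.76 ± 0.23, a difference of 1.43. *Dll4* to *Dll1* gave -1.88 ± 0.09 and -1.58 ± 0.14, a difference of -0.30, and *Jag2* to *Jag1* gave 2.86 ± 0.24 and 2.48 ± 0.15, a difference of 0.38. In all 4 ratios the groups did not overlap, and the two-sided exact permutation test gave p = 0.0286 for each, also after Benjamini-Hochberg adjustment over the 4, which is the smallest p that 4 against 4 allows. *Notch3* and *Jag1* already separated the groups on their own, so the ratios that hold them are not separate results. On their own, *Hes1* and *Dll4* had unadjusted p-values of 0.00665 and 0.0279 by edgeR. The other ratios therefore also carry these single-gene differences. The share of other gene pairs without overlap was not computed.

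Because the groups did not overlap, the direction of each ratio had to hold when any 1 library was left out. The call did not always hold. With so few libraries the permutation test can give only a few p-values, so a lost call does not measure the size of a difference. Without *Mettl3*-CKO replicate 1 the differences were -0.63, 1.32, -0.27 and 0.39 in the order above, and without *Mettl3*-CKO replicate 2 they were -0.68, 1.51, -0.27 and 0.27, with adjusted p = 0.0571 for each by the exact permutation test. For *Jag2* to *Jag1* the call was also lost without control replicate 1, 2 or 4, with differences of 0.33, 0.40 and 0.35. In FPKM, *Hes1* stood at 0.458 ± 0.0835 of *Hes5* in controls and 0.709 ± 0.0342 in *Mettl3*-CKO retinas (SD, n = 4).

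**Figure D4:**
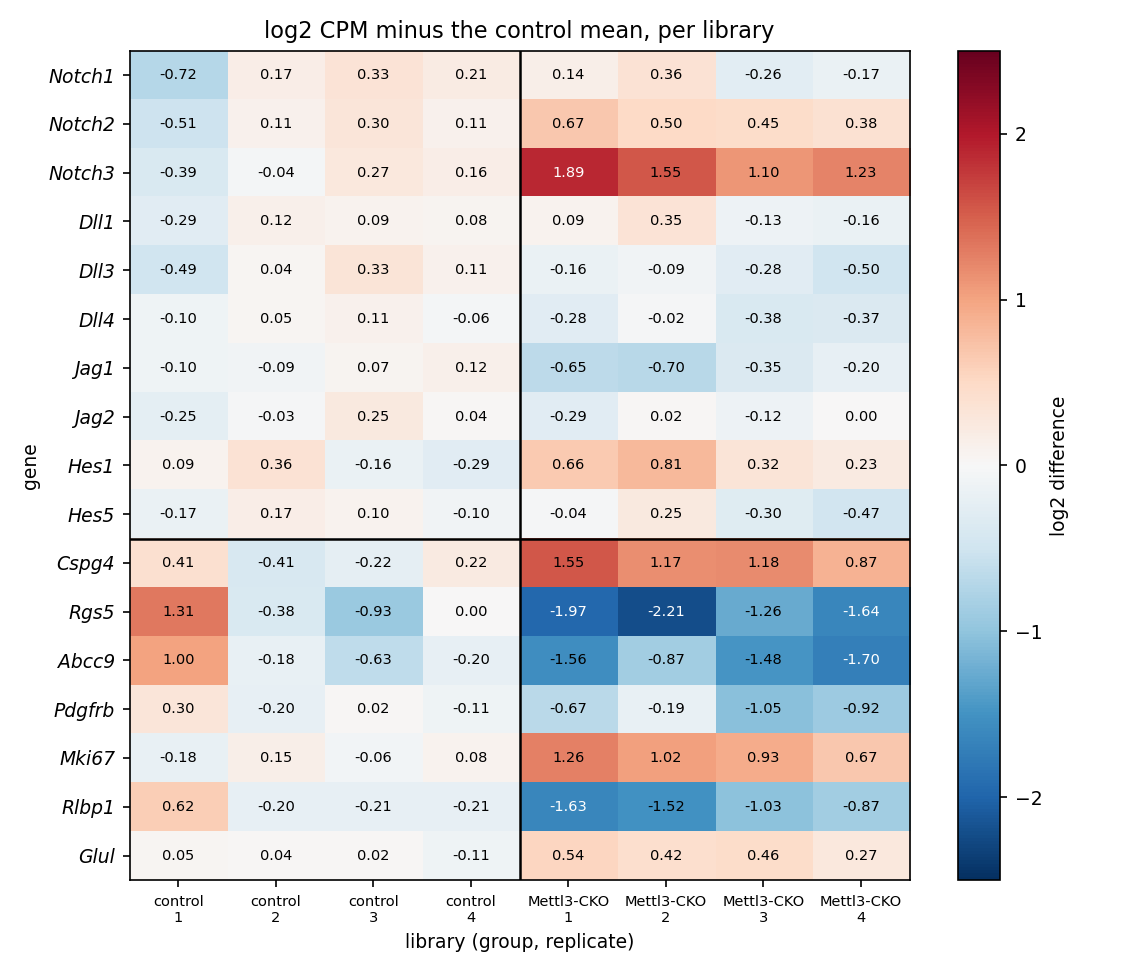
Log2 CPM minus the control mean for the 10 genes and for marker genes of pericytes (*Cspg4*, *Rgs5*, *Abcc9*, *Pdgfrb*), dividing cells (*Mki67*) and Müller glia (*Rlbp1*, *Glul*), 1 column per library, with red above and blue below the control mean. *Notch3* is above it in all 4 *Mettl3*-CKO columns, and *Notch1* in control replicate 1 is far below the other controls.

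Of 55 other genes of the Notch pathway, 54 were tested, with *Hes3* at 0 to 7 counts left out by the filter. Of these, 2 rose, 2 fell and 50 did not pass the threshold, or 7.41% called against 10.5% of all genes tested. Their median log2 fold change was -0.02 against -0.01 for all genes, and 50 of them had an absolute log2 fold change under 0.5.

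*Atoh7*, a proneural factor of early retinal neurons, rose from 10.5 ± 1.57 to 31.4 ± 8.88 CPM (SD, n = 4), which is a log2 fold change of 1.57 (SE 0.18, adjusted p = 0.000434 by edgeR). It was measured at 44.5, 29.3, 27.0 and 24.9 CPM in *Mettl3*-CKO libraries 1 to 4, against 9.04, 10.2, 12.7 and 10.2 CPM in control libraries 1 to 4, without overlap. *Spen*, a nuclear corepressor that binds RBPJ, rose from 170 ± 44.6 to 317 ± 48.0 CPM, a log2 fold change of 0.90 (SE 0.18, adjusted p = 0.00802 by edgeR). It was at 384, 312, 271 and 301 CPM in *Mettl3*-CKO libraries 1 to 4, against 104, 190, 201 and 186 CPM in control libraries 1 to 4, and without control replicate 1, the lowest, its log2 fold change was 0.72.

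*Dlk1*, a membrane protein of the Delta type without the receptor-binding domain of canonical ligands, fell from 4.57 ± 1.26 to 1.42 ± 0.736 CPM (SD, n = 4), or a log2 fold change of -1.67 (SE 0.32, adjusted p = 0.00758 by edgeR). *Mettl3*-CKO replicates 1 to 4 were at 1.22, 0.812, 1.17 and 2.49 CPM and control replicates 1 to 4 at 6.05, 4.65, 4.62 and 2.96 CPM, so that the closest pair of libraries was separated by little. *Neurl1a*, a ubiquitin ligase that acts on ligands, fell from 45.6 ± 3.01 to 36.0 ± 4.42 CPM, a log2 fold change of -0.34 (SE 0.10), at an adjusted p-value of 0.04996 from edgeR. That call was lost when any library other than control replicate 1 or *Mettl3*-CKO replicate 4 was left out (log2 fold change -0.42 to -0.27 over the 8 fits).

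By edgeR with all libraries, 1 of 13 ubiquitin ligases and trafficking genes (*Neurl1a*) and 1 of 6 nuclear corepressors and inhibitors (*Spen*) were called. Other groups held no call: 0 of 5 receptor glycosyltransferases, 0 of 10 proteases that mature or cut the receptors, and 0 of 6 genes of the nuclear activation complex. Of all genes tested 10.5% were called, so that 0 calls in groups this small is close to the background. At an unadjusted p-value under 0.05 there were 2, 2 and 0 of them. DESeq2 called 0 in each group, and limma's voom fit called 2, 1 and 0. *Rbpj* itself had a log2 fold change of 0.14 (95% interval -0.07 to 0.34). Of the 7 other *Hes* and *Hey* genes and *Nrarp* that were tested, 0 were called by edgeR, 0 had an unadjusted p-value under 0.05, 0 were called by DESeq2 and 1 (*Heyl*) by limma's voom fit. *Hes6*, a family member of differentiating neurons, averaged 455 CPM in *Mettl3*-CKO libraries, against 434 CPM in controls. *Notch4*, the receptor of endothelium, had a log2 fold change of -0.08 (adjusted p = 0.792 by edgeR). Without control replicate 1, 1289 of 18235 genes tested were called lower, against 729 of 17998 with all libraries. In that fit the number of pathway genes called lower was 6 in place of 2. Among the added ones were *Pofut1* (log2 fold change -0.41), *Furin* (-0.34) and *Dtx3* (-0.26), and *Rita1* (0.54) joined those called higher. These 4 were named after their values were seen.

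For 4 of the 10 genes, the tested genes whose pattern over the 8 libraries was most like theirs were found by the root mean square difference of log2 CPM, each gene centred on its own mean. *Dock1* (0.0833), *Sdk2* (0.0889) and *Gm43654* (0.0925) were closest to *Notch1*. *Kmt5a* (0.0435), *Rcc2* (0.0437) and *Taf4* (0.0478) followed *Dll1* most closely. *Pop1* (0.106), *Pank1* (0.112) and *Hsph1* (0.114) were nearest to *Hes1*, at more than the distances found for *Dll1*, and *Nkd1* (0.0523), *Rnf216* (0.0679) and *Cdc20* (0.075) to *Hes5*. All points share library and depth, and the distances are a description with no test.

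**Figure D5:**
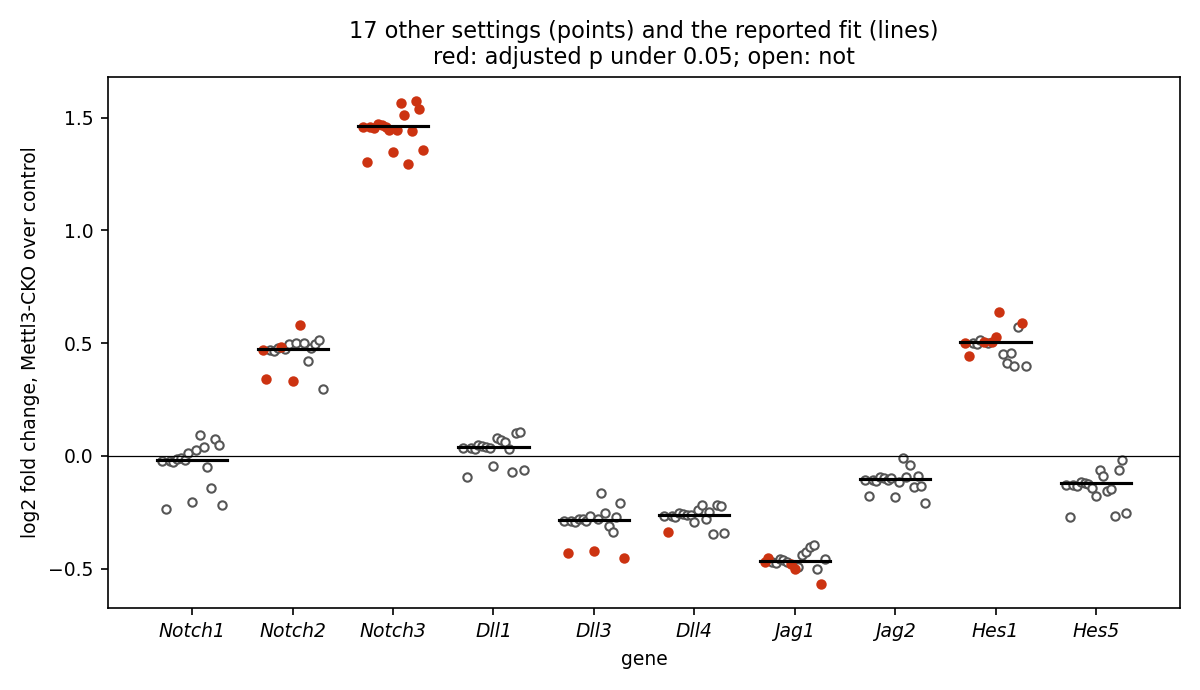
Log2 fold change of each of the 10 genes under 17 other settings (points, other tests, scalings, filters, the replicate block and libraries left out) beside the reported value (line). *Notch3* stays between 1.29 and 1.57 and was called in 17 of 17, while the points of *Notch1* and *Dll1* lie on both sides of 0.

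Over those 17 settings, *Hes1* was called in 7, *Notch2* and *Jag1* in 5 each, *Dll3* in 3, *Dll4* in 1, and *Hes5*, *Jag2*, *Dll1* and *Notch1* in 0. The fold changes of *Hes1* lay between 0.40 and 0.64 and those of *Notch2* between 0.30 and 0.58. *Jag1* lay between -0.57 and -0.39. These 3 genes kept their direction in all 17 settings, with adjusted p-values on both sides of the threshold. The calls of *Dll4*, of *Dll3* with all libraries and 1 each of *Hes1*, *Notch2* and *Jag1* came from limma's voom fit with weights per sample.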

How the data were processed

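Per the methods and the labels, the authors made libraries from TRIzol RNA with the NEBNext Ultra kit, aligned reads to GRCm38 (mm10) using HISAT2 and assigned them to genes using featureCounts. CASAVA is also named in the submitters' processing notes. The deposited values are raw counts per gene, with gene lengths and positions; the annotation release and strand setting are not given in the sources used here. Columns of samples outside the 8 used: 0. The test was edgeR 4.0.16 in R 4.3.3 (filterByExpr, TMM, glmQLFit and glmQLFTest, no covariate), Benjamini-Hochberg adjusted over 17998 genes at 0.05; the biological coefficient of variation was 15.0%. Log2 CPM used a prior count of 2, and FPKM was computed from counts, lengths and library totals. DESeq2 1.42.0, limma 3.58.1 (voom with sample quality weights), other scalings, filters, thresholds and left-out libraries were alternatives. No pair of libraries agreed within sampling noise (lowest chi-square 5.46 per gene). The members and lists were chosen with earlier results of these data known. The text names all 10 genes, *Mettl3*, each pathway gene past the threshold, marker genes as needed, and the 3 genes most alike *Notch1*, *Dll1*, *Hes1* and *Hes5*; other pathway genes are named as examples of their group. Some pathway genes are counted but not reported by name here.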

Additional observations from a re-analysis of the deposited data

Results flagged for a closer look

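In 2 of the 30 groups of 4 libraries examined, 1 library lay far from the other 3, where chance gives about 1.5. Both were control replicate 1. Its log2 CPM of *Notch1* was 7.85 against 8.74 to 8.90 in the other controls, and its log2 CPM of *Dll1* was 6.14 against 6.502 to 6.55. The same library had the highest summed mural (67.7 CPM), astrocyte (198 CPM) and rod (4724.5 CPM) marker levels of the 8, and their part in its *Notch1* and *Dll1* levels was not tested.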

How the results depend on the processing

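*Notch3* was called under all 17 settings. The number of the 10 genes called higher, 1 as reported, was 3 with DESeq2, with voom, without a filter and at a threshold of 0.1, 2 with the replicate block, and 1 to 3 with 1 library left out. The number called lower, 0 as reported, was 3 with voom, 1 with DESeq2, with the replicate block, at 0.1 and without control replicates 1 and 4, and 0 to 2 with 1 library left out. Pathway genes called higher, 2 as reported, were 4 with voom and 4 with the replicate block, and 2 to 3 with 1 library left out. Those called lower, 2 as reported, were 9 with voom, 4 without control replicates 1 and 4, 1 with library totals only, without a filter, with the replicate block and at 0.01, and 1 to 6 with 1 library left out, the 6 being without control replicate 1. Over all genes, the fit without control replicate 1 called 1882 higher and 1289 lower of 18235, against 1168 and 729 of 17998 as reported. The causes were not tested.

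The sign of *Dll1* turned with voom (-0.092), without control replicates 1 and 4 (-0.060) and with 1 library left out (-0.072 to 0.11). That of *Notch1* turned with the replicate block (0.013) and with 1 library left out (-0.20 to 0.092).

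Without control replicates 1 and 4, too few libraries remain for the exact permutation test to reach 0.05. The ratio differences were then -0.68 (*Hes5* to *Hes1*), -0.27 (*Dll4* to *Dll1*), 1.57 (*Notch3* to *Notch1*) and 0.26 (*Jag2* to *Jag1*). With the replicate block they were -0.65, -0.30, 1.43 and 0.38, each at p = 0.125, the smallest an exact sign-flip permutation test of 4 pairs allows. With 1 library left out they ran from -0.73 to -0.56, -0.34 to -0.24, 1.32 to 1.54 and 0.27 to 0.44.

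Whether libraries with the same replicate number were paired is not given in the sources used here. Deviations of same-numbered libraries correlated at -0.114 to 0.249, and 4 of 8 libraries correlated best with their own number. With 4 libraries per group, these values cannot show whether the numbers mark pairs. The block added calls of *Hes1* (adjusted p = 0.00606) and *Jag1* (0.0371) with edgeR. Over all genes, DESeq2 called 14.2% and voom 20.6%. Counts of *Jag1*, the lowest of the 10, were at least 114, so low depth limits the untested *Hes3* more than these genes.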
